A study of Mus musculus with 2 samples.

Results

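The cells described here are 99 of the 10610 cells of 2 mouse bone marrow libraries, chosen by their measured levels of basophil, mast cell and neutrophil transcripts. A cell was kept when Cpa3, Mcpt8, Prss34 and Ms4a2 together reached at least 30 unique molecular identifiers (UMIs, single counted RNA molecules) per 10000 of the cell's UMIs, and when the neutrophil genes S100a8 and S100a9 together stayed under 400 per 10000. The rule kept 42 of 5398 cells of the library of mice given a middle cerebral artery occlusion (MCAO), a surgical stroke model, and 57 of 5212 cells of the control library. These 99 cells are called the gated cells below, and the remaining 10511 the other marrow cells.

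Both libraries were made from all marrow cells of wild-type (WT) male mice aged 8 to 10 weeks, flushed from tibias and femurs and treated with a lysis buffer for red blood cells. Single cells were captured in microwells with the BD Rhapsody system, which tags each RNA molecule with a cell barcode and a UMI. How many animals went into a library, how long after occlusion marrow was taken and whether control mice had sham surgery are not given in the sources used here. With 1 library per condition there is no replicate and no test, and every interval below is a 95% interval that covers counting error only. The intervals are exact, except those of differences between shares, which are approximate.

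Basophils and mast cells are granulocytes that carry the high-affinity receptor for immunoglobulin E (IgE) and release histamine, lipid mediators and cytokines when that receptor is crosslinked. Basophils finish their development in the bone marrow and leave it for the blood, whereas mast cells leave as precursors and mature in tissues. Both lineages depend on the transcription factor GATA2, and interleukin 3 expands basophils in mice. The receptor is a complex of an IgE-binding alpha chain (Fcer1a), a signal-amplifying beta chain (Ms4a2) and a gamma chain shared with other Fc receptors (Fcer1g).

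The gate genes lie on separate chromosomes of the mouse genome build GRCm38, which is mm10 (positions from GENCODE M21). Mcpt8 lies at chr14:56082166-56085273 on the minus strand and Prss34 at chr17:25298394-25300165 on the plus strand. Cpa3 lies at chr3:20215620-20242181 and Ms4a2 at chr19:11615523-11623719, both on the minus strand. Fcer1a lies at chr1:173221284-173227214 on the minus strand, and Cd200r3, an activating receptor of basophils and mast cells, at chr16:44943678-44981380 on the plus strand.

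Because Gata2 was the gated cells' highest lineage transcription factor, the promoters of the receptor genes are shown with each GATAA, or its reverse complement TTATC, in capitals. Each sequence is from RefSeq (GRCm38.p6), runs 5′ to 3′ on the gene's strand and covers 250 bases before to 50 bases after the gene's start. The 4 windows are chr1:173227180-173227479, chr19:11623670-11623969, chr16:44943428-44943727 and chr14:56085148-56085447, in the order printed. Mcpt8 is shown as the gate gene with no match.
Fcer1a: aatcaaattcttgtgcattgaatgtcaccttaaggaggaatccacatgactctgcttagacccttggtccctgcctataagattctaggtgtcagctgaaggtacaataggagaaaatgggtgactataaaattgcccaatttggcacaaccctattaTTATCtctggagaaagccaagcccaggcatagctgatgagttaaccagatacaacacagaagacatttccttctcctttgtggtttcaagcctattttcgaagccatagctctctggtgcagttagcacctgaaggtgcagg
Ms4a2: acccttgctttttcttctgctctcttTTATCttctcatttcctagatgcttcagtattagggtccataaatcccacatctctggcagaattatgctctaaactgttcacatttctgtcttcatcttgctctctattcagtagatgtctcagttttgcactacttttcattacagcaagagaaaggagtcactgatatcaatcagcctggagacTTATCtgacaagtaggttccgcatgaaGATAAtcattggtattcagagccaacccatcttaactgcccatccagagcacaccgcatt
Cd200r3: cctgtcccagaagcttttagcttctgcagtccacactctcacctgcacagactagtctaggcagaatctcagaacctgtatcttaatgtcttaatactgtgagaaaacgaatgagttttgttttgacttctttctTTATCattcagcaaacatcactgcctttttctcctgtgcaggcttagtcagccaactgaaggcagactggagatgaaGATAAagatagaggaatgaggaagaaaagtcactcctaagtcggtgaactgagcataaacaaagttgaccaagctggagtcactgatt
Mcpt8: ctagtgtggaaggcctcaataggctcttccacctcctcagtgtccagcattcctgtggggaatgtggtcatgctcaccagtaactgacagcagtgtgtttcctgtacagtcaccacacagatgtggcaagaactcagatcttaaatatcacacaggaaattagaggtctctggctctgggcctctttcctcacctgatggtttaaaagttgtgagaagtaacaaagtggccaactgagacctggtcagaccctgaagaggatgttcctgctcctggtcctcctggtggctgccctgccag
The motif occurred 3 times for Ms4a2, 2 times for Cd200r3 and 1 time each for Fcer1a, Cpa3 and Prss34, counting both strands. Neither of the 2 listed promoters of Gata2 nor the 2 of Cyp11a1 held it. Of 32851 promoters of the same length, 25.4% held at least 1 match and 5.27% held 2 or more. A match describes these letters and is not a measured binding site.

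The gated cells made up 0.778% of the MCAO library (exact binomial interval 0.561% to 1.05%) and 1.09% of the control library (0.829% to 1.41%). The difference, MCAO minus control, was -0.316 percentage points, with an interval of -0.694 to 0.0528 that includes 0. The values ran on across the gate's edge: the cells with the 3 lowest sums inside it had 30.4, 31.4 and 31.6 UMIs per 10000, and the 3 highest outside it had 29.8, 28.8 and 27.9. A sum of 15 to 30 was found in 15 MCAO cells and 25 control cells, and a sum of 10 to 30 in 25 and 62. The 99th percentile of the other marrow cells was 9.27. The S100 limit removed no cell, since 0 of 10610 cells had a gate sum of 30 or more with an S100a8 and S100a9 sum of 400 or more. Inside the gate the highest S100a8 and S100a9 sum was 211.

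Gated cells held a median of 4290.5 UMIs in the MCAO library and 5483 in the control library, and 242842 and 390355 UMIs in all. The libraries as a whole ran the other way, with medians of 4952 UMIs per MCAO cell and 3344 per control cell. UMIs of gate genes also appeared in cells that should lack them: 12.4% of 619 MCAO and 18.6% of 1138 control cells of the B lineage, with median depths of 2127 and 1990.5 UMIs, held at least 1. A doublet caller marked 57 MCAO cells and 52 control cells, and 0 of them were gated cells. The cell names in the table are running numbers rather than barcodes, so barcodes shared by the libraries could not be counted.

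The 4 gate genes, which the rule used, are given as a description. Prss34, a basophil serine protease, summed to 362 UMIs per 10000 over MCAO gated cells and 272 over control gated cells. Mcpt8, the protease that marks mouse basophils, summed to 127 in MCAO and 111 in control cells. Cpa3, a carboxypeptidase stored with heparin in mast cell granules and also made by basophils, stood at 51.0 in MCAO and 50.2 in control cells, and Ms4a2 at 29.4 and 24.7. The proteases were spread far more widely over single cells than the receptor chain. Prss34 ran from 0 through a median of 200 to 849 in MCAO cells and from 0 through 153 to 833 in control cells. Ms4a2 ran from 1.69 through 27.7 to 74.6 in MCAO cells and from 0 through 25.5 to 78.3 in control cells.

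**Figure D1:**
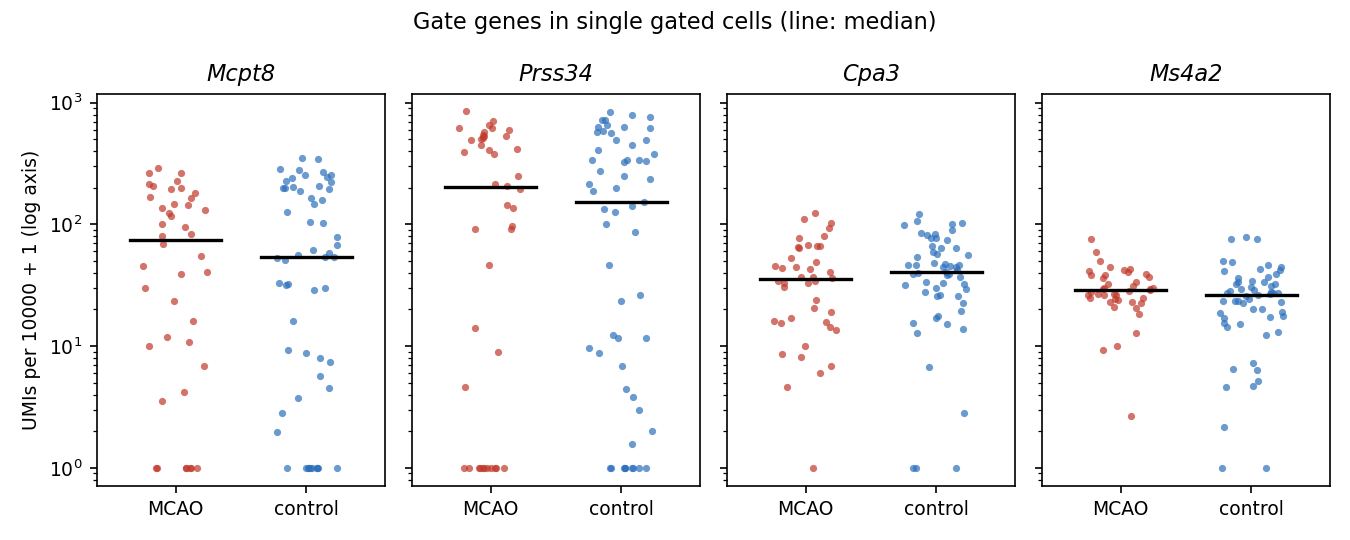
Level of each gate gene in single gated cells (UMIs per 10000 plus 1, log axis) for 42 MCAO and 57 control cells, with a line at the median. Mcpt8 and Prss34 run over most of the axis in both libraries, while most Cpa3 and Ms4a2 values lie within a narrower band.

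The gate was meant to hold mast cell precursors beside basophils, and the mast cell chymase and tryptase genes measured here were nearly absent. Mcpt4, Tpsb2, Tpsab1 and Mcpt2, which encode mast cell chymases and tryptases, and Tph1, which makes serotonin, had 0 UMIs in the gated cells of both libraries, and Cma1 had 1 UMI, in control. With 3 UMIs of the total as the upper limit, a count of 0 allows a level of up to 0.124 UMIs per 10000 in MCAO and 0.0769 in control gated cells. Kit, the stem cell factor receptor that mast cells keep, had 8 UMIs in 4 MCAO cells and 27 UMIs in 10 control cells. Mitf, a transcription factor needed by mast cells, stood at 0 UMIs per 10000 in MCAO and 0.0512 in control cells. Of the list as a whole, 12 of 16 genes are in the table, and 3 reached the minimum count (Cpa3, Slc18a2 and Itgb7). All 3, of which Cpa3 is a gate gene, were at least 2-fold higher in the gated than in the other marrow cells of both libraries. Of the 8 genes of the basophil list that the gate did not use, 7 were at least 2-fold higher in the gated than in the other marrow cells of both libraries, where 11.1% of 2650 ranked genes were. These are genes of the same cells that were gated, so the counts of both lists describe the gate and test nothing. The cells are named by their genes here, and no cell is called a mast cell precursor.

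A gene was ranked when it had at least 50 UMIs over the gated cells of both libraries and was seen in at least 10% of the gated cells of 1 library. Haemoglobin, antigen receptor and the gate genes were not ranked, but count below as members of a list where they pass the same minimum. Among ranked genes, the following 12 stood highest over the other marrow cells, and since the gate was cut from these same cells they describe it and test nothing. Fcer1a led, with 17.1 UMIs per 10000 in MCAO and 7.58 in control gated cells, against 0.0156 and 0.0192 in the other marrow cells of those libraries. Cd200r3 followed, with 11.8 in MCAO and 7.63 in control gated cells against 0.0239 and 0.02. Gata2 reached 28.3 in MCAO and 22.98 in control gated cells against 0.166 and 0.164. The next were Cyp11a1, the enzyme that starts steroid synthesis from cholesterol, at 5.02 and 3.79, and Alox15, a lipoxygenase, at 6.47 and 3.54. The serotonin receptor gene Htr1b, Il6, Rnase12, Csrp3, the integrin gene Itga2b, the complement receptor gene C3ar1 and Fam174b completed the 12, between 1.98 and 4.20 in MCAO gated cells and between 1.49 and 3.87 in control gated cells. Alox15 and Rnase12 were higher still in eosinophil-lineage cells outside the gate (Prg2, Epx and Ear1 together at least 30). There Alox15 stood at 12.9 in 14 MCAO and 5.43 in 12 control cells, and Rnase12 at 3.61 and 5.82. The rest of the 12 were lower there than in the gate. A further 2.75% of ranked genes were at least 2-fold lower than in the other marrow cells of both libraries, among them members of the neutrophil list, all 10 of which were lower (the gate set an upper limit on S100a8 and S100a9, which removed no cell).

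**Figure D2:**
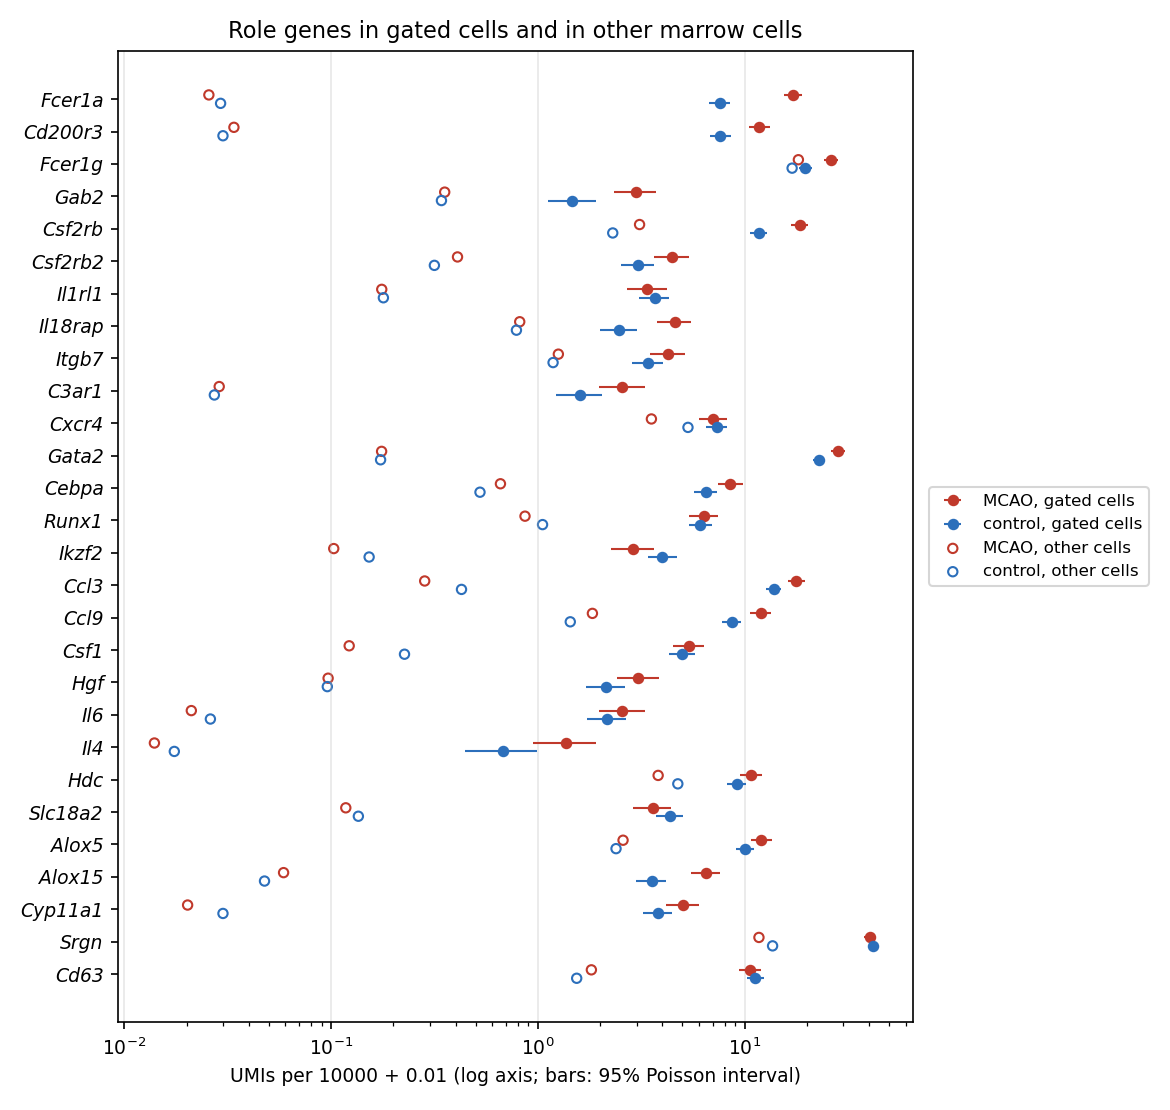
Summed level of 28 genes of basophil function in gated cells (filled, with 95% Poisson intervals) and other marrow cells (open), in UMIs per 10000 plus 0.01 on a log axis. Fcer1a, Cd200r3, Cyp11a1 and Gata2 lay furthest from the other cells, and Fcer1g lay close to them.

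Neutrophil transcripts were present in the gate near the level seen in B-lineage cells. The 10 genes of the neutrophil list summed to 154 UMIs per 10000 in MCAO and 133 in control gated cells, to 181 and 151 in B-lineage cells and to 1107 and 1027 in other marrow cells. The 4 haemoglobin genes summed to 14.04 in MCAO and 7.97 in control gated cells, beside 17.3 and 10.2 in B-lineage cells and 78.6 and 46.5 in other marrow cells. Genes of the B lineage summed to 0.824 in MCAO and 2.82 in control gated cells. The monocyte list summed to 9.97 and 12.6, the macrophage list to 1.77 and 1.31, the dendritic list to 1.28 and 1.79, the T cell list to 0.206 and 0.179, the NK cell list to 2.55 and 4.05, and the megakaryocyte list, mostly Itga2b, to 4.37 and 3.56. The part of these transcripts in the differences below was not tested.

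Mcpt8 and Prss34 varied together from cell to cell, with a Spearman rho of 0.91 over 42 MCAO cells and 0.93 over 57 control cells. Such a correlation shares the depth of each cell and is given as a description. A cell was placed on the basophil side when Mcpt8 plus Prss34 reached 30 UMIs per 10000 and on the Cpa3 side otherwise, which makes the sides ranges of 1 measure and not cell types. The name Cpa3 side stands for low Mcpt8 and Prss34 and not for high Cpa3. The mast cell list, which includes Cpa3, summed to 35.1 in MCAO and 35.3 in control cells there. On the basophil side it summed to 64.6 and 66.2. An Mcpt8 UMI was held by 17 of 34 Cpa3 side cells of both libraries. The basophil side held 28 of 42 MCAO gated cells (66.7%, 50.5% to 80.4%) and 37 of 57 control gated cells (64.9%, 51.1% to 77.1%). The difference of 1.75 percentage points had an interval of -17.0 to 19.6. Within a factor of 2 of the threshold lay 2 MCAO and 6 control cells. Cpa3 side cells were shallower, with medians of 2742.5 UMIs in MCAO and 2857.5 in control cells, against 6069.5 and 7683 on the basophil side.

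Ms4a2 and Gata2 were present on both sides. Ms4a2 was seen in 14 of 14 MCAO and 19 of 20 control cells of the Cpa3 side, and Gata2 in 13 of 14 and 19 of 20. Gata2 had 22.7 UMIs per 10000 in MCAO and 14.3 in control cells of the Cpa3 side, beside 29.5 and 25.7 on the basophil side. Cd200r3 stood at 12.4 and 5.22 on the Cpa3 side and at 11.6 and 8.40 on the basophil side. Fcer1a leaned to the basophil side, at 19.96 in MCAO and 8.80 in control cells there against 4.497 and 3.73 on the Cpa3 side. A few deep cells weigh on the Cpa3 side sums. Of its 93866 control UMIs, single cells gave 17687, 10164, 9746 and 8594, and these cells held no Cd200r3 or Fcer1a UMI. Their Gata2 levels were 7.92, 10.8, 10.3 and 1.16. Of its 44474 MCAO UMIs, 1 cell gave 11832 and also held neither, with Gata2 at 0.845.

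Genes at least 2-fold higher on the basophil side in both libraries numbered 95, or 3.58% of ranked genes, and 65, or 2.45%, were at least 2-fold lower. The 10 that stood furthest to the basophil side included genes of the dividing cell: Nusap1, a spindle protein, at 2.37 UMIs per 10000 in MCAO and 2.70 in control basophil side cells against 0.225 and 0.320 on the Cpa3 side, Racgap1 and Nuf2, which act in cytokinesis and at the kinetochore, and Pclaf and Slbp, which act in DNA replication and histone mRNA processing. Bet1, Ammecr1, Trim59 and Ms4a3, a membrane gene of granulocyte progenitors, were also among them. Of the 15 ranked genes of the G2 and M phase list 6 were at least 2-fold higher on the basophil side in both libraries, as were 4 of 12 ranked S phase genes.

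Of 12 ranked immediate early and heat shock genes 2 were at least 2-fold higher on the Cpa3 side in both libraries and 0 on the basophil side, and of 9 ranked secreted cytokine and chemokine genes 2 were and 1 was. Egr1, an immediate early transcription factor, had 11.2 UMIs per 10000 in MCAO and 5.54 in control Cpa3 side cells, against 0.706 and 0.944 on the basophil side. An Egr1 UMI was held by 6 of 14 MCAO and 9 of 20 control cells of the Cpa3 side, and the highest control cell reached 124. Ccl6 stood at 33.3 in MCAO and 20.03 in control Cpa3 side cells against 6.40 and 5.33, and Ccl4 at 14.2 and 9.80 against 3.08 and 2.50. The surface gene Cd7 stood at 7.20 and 6.18 against 0.756 and 0.944, and the interleukin 7 receptor gene Il7r at 4.72 and 4.15 against 1.06 and 0.843. Samhd1, Zfp36, Rgs1, Arl4c and Ctdsp2 completed the 10. Ccl6, Zfp36, Cd7, Nusap1, Pclaf and Slbp overlap a gene on the opposite strand, and whether the counting used strand is not given in the sources used here, so their counts may hold reads of that partner.

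**Figure D3:**
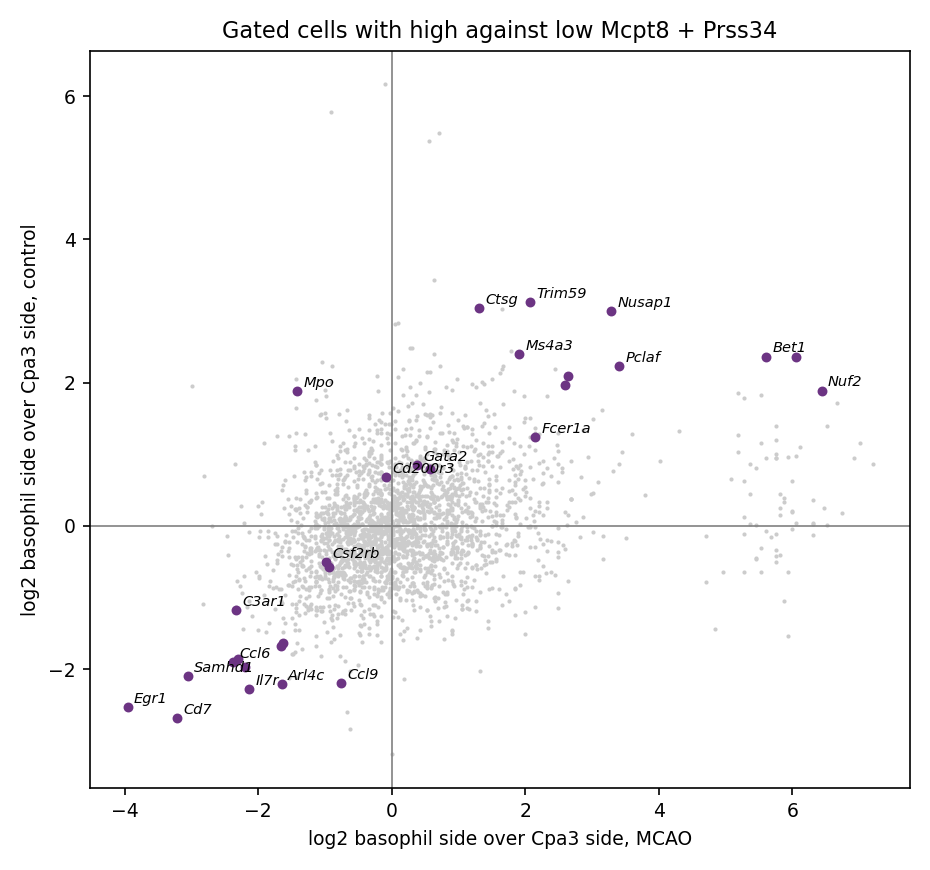
log2 ratio of the basophil side over the Cpa3 side for 2650 ranked genes, MCAO on the horizontal and control on the vertical axis, with named genes in purple. Division genes lie at upper right and Egr1, Cd7 and chemokine genes at lower left in both libraries, and of the 70 genes beyond 4 on the horizontal axis 69 had 0 UMIs in the 14 MCAO cells of the Cpa3 side.

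A gated cell was called dividing when the 20 genes of the G2 and M phase list reached 10 UMIs per 10000. Dividing cells were 22 of 42 MCAO gated cells (52.4%, 36.4% to 68.0%) and 33 of 57 control gated cells (57.9%, 44.1% to 70.9%), and the difference of -5.51 percentage points had an interval of -24.4 to 13.7. On the basophil side 17 of 28 MCAO cells (60.7%) and 26 of 37 control cells (70.3%) were dividing, against 5 of 14 (35.7%) and 7 of 20 (35%) on the Cpa3 side. Among other marrow cells 38.9% of MCAO and 35.8% of control cells passed the same limit, and among progenitors with Kit or Cd34 outside the gate 72.1% and 76.8%. Between 5 and 20 on the same scale, near the limit, lay 19 MCAO and 20 control gated cells, so the class is a range of a score and not a measured phase. Every cell was also thinned to 1000 UMIs, which left out 1 gated cell in each library. A G2 and M phase UMI was then found in 58.5% of MCAO and 73.2% of control gated cells, with overlapping intervals (42.1% to 73.7% and 59.7% to 84.2%). Among B-lineage cells it was found in 43.9% and 45.8%.

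**Figure D4:**
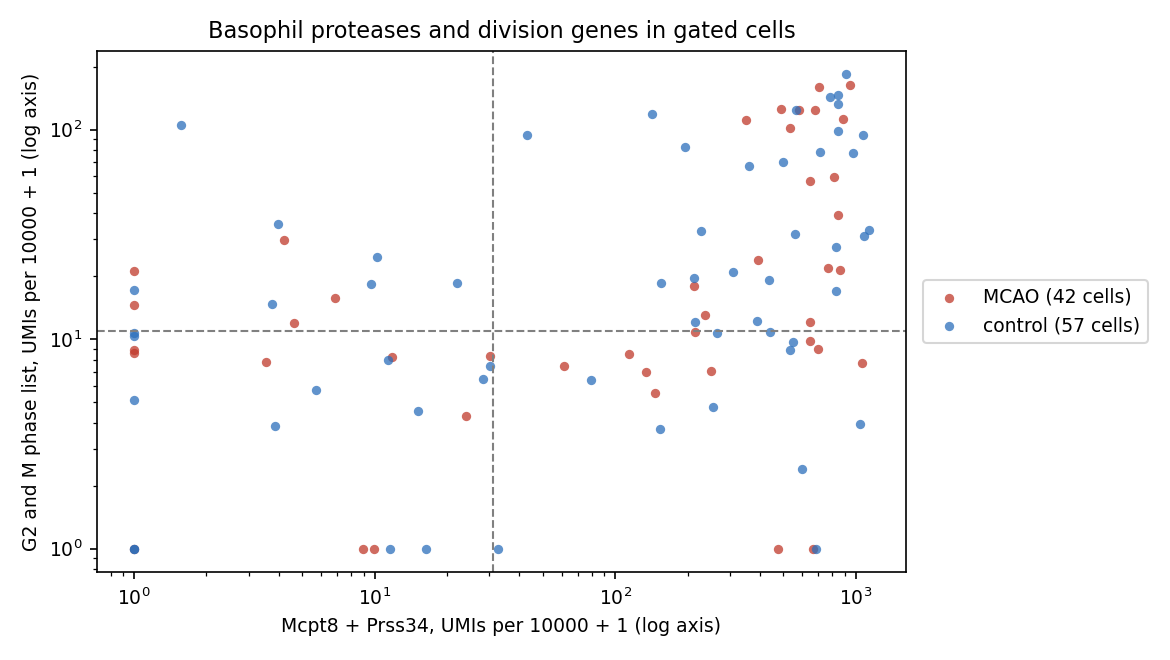
Each gated cell's Mcpt8 plus Prss34 level against its G2 and M phase level (UMIs per 10000 plus 1, log axes), 42 MCAO and 57 control cells, with dashed lines at the limits of the basophil side and of dividing cells. Of the cells above 100 on the vertical scale, 8 of 8 MCAO and 6 of 7 control cells lie on the basophil side.

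Between the conditions, 36 ranked genes (1.36%) were at least 2-fold higher and 77 (2.91%) at least 2-fold lower in MCAO than in control gated cells, and the median log2 ratio over all ranked genes was -0.0028. A higher level of any size in MCAO cells was found for 49.6% of ranked genes and a lower one for 50.4%. Most of these genes had few UMIs, so the counts depend on the minimum set for ranking.

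Fcer1a had the highest level of the 12 genes at the high end. It had 416 UMIs in 34 of 42 MCAO cells and 296 UMIs in 38 of 57 control cells, or 17.1 against 7.58 UMIs per 10000, a 2.26-fold higher level in MCAO cells with a counting interval of 1.94 to 2.63. Over single cells it ran from 0 through a median of 10.5 to 43.6 in MCAO cells and from 0 through 4.03 to 55.7 in control cells, so the libraries overlapped over nearly their whole range. On the basophil side 26 of 28 MCAO cells and 25 of 37 control cells held a UMI, and 8 of 14 against 13 of 20 did on the Cpa3 side. Thinned to 1000 UMIs per cell, 51.2% of MCAO and 41.1% of control gated cells held one, with overlapping intervals (35.1% to 67.1% and 28.1% to 55.0%). Among B-lineage cells 1 of 619 MCAO and 0 of 1138 control cells held one, control with an upper bound of 0.324%.

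At a limit of 10 the Fcer1a difference was found among dividing cells, a split applied to these genes after their values were seen, and whether it differed between dividing and non-dividing cells was not tested. Dividing cells held 22.3 UMIs per 10000 in MCAO and 7.18 in control cells, a fold of 3.10 (2.61 to 3.69), and all but 1 of 22 MCAO cells held a UMI, against 21 of 33 control cells. Non-dividing cells held 8.90 in MCAO and 8.99 in control cells, a fold of 0.990 (0.718 to 1.37). The class of non-dividing cells is set by G2 and M phase genes alone, and the S phase list summed to 16.5 in its MCAO and 6.11 in its control cells. Dividing control cells were also the deeper ones, so that the medians were 5715.5 UMIs in dividing MCAO cells and 8783 in dividing control cells, and the part of depth in these values was not tested.

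With the limit for dividing cells set at 5 or 20 in place of 10, Fcer1a stood at 18.1 or 23.2 in MCAO and 6.82 or 7.92 in control cells above the limit. Below the limit it stood at 5.43 in 7 MCAO and 13.98 in 14 control cells with a limit of 5, and at 10.01 and 7.07 with a limit of 20. The higher level of MCAO cells above the limit was thus found at each limit, and the values below it depended on the limit.

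Of 11 ranked cytokine and alarmin receptor genes 9 had a higher level in MCAO than in control dividing cells and a lower one in non-dividing cells, as did 6 of 17 receptor and adhesion genes, 7 of 14 IgE receptor and signalling genes and 25.1% of all ranked genes. The following were picked for their values. Cd200r3 had 13.4 UMIs per 10000 in MCAO and 6.52 in control dividing cells, and 9.12 and 11.5 in non-dividing cells. Csf2rb, the common beta chain of the receptors for interleukin 3, interleukin 5 and GM-CSF, had 16.4 and 8.17 in dividing and 21.8 and 24.1 in non-dividing cells. Il18rap, a chain of the interleukin 18 receptor, had 5.01 and 1.61 in dividing and 3.86 and 5.42 in non-dividing cells. Below a limit of 20 Cd200r3 (10.9 and 9.70) and Csf2rb (23.9 and 19.9) were higher in MCAO cells too, and Il18rap (4.29 and 4.43) was lower. Below a limit of 5 Cd200r3 (19.5 and 17.8) and Il18rap (8.14 and 6.51) were higher in MCAO cells, and Csf2rb (26.0 and 31.3) was lower. Itga2 was higher in MCAO cells of both classes.

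Of 5 ranked promyelocyte genes 0, and of 4 ranked early progenitor genes 0, had a higher level in MCAO than in control dividing cells, where 49.2% of all ranked genes did. In non-dividing cells 5 of the promyelocyte genes and 1 of the early progenitor genes had, beside 51.1% of all ranked genes. Mpo, the peroxidase of promyelocyte granules, stood at 15.5 UMIs per 10000 in MCAO and 34.7 in control dividing cells, and Cd34, a marker of progenitors, at 0.535 (8 UMIs) and 1.81 (55 UMIs). Myb, a transcription factor of progenitors, stood at 2.005 and 4.02, and Lmo4, a transcriptional cofactor, at 8.96 and 14.3. Single cells weigh on these sums: 1 control cell, which also held many UMIs of eosinophil genes, gave 208 of the 1054 Mpo UMIs of dividing control cells. In the non-dividing class, 1 MCAO cell gave 177 of the 253 Mpo UMIs of MCAO cells. Without the 2 control cells with eosinophil genes, dividing control cells stood at 30.8 for Mpo, 3.28 for Myb and 1.99 for Cd34. Mpo was detected in 14 of 22 MCAO and 27 of 33 control dividing cells. The list of 5 measured promyelocyte genes summed to 35.6 in MCAO and 60.6 in control dividing cells, and the early progenitor list of 12 genes to 9.16 and 14.7 (53.3 and 14.3 in control without those 2 cells). Not every gene of granulocyte progenitors was lower: Cebpa stood at 7.69 in MCAO and 6.29 in control dividing cells. Of 4 ranked early progenitor genes in all gated cells, 4 had a lower level in MCAO cells, where 50.4% of all ranked genes did, and 1, Cd34, was at least 2-fold lower, beside 2.91% of all.

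In the IgE receptor and signalling list, 2 of 14 ranked genes were at least 2-fold higher in MCAO gated cells, 1 was at least 2-fold lower (1.36% and 2.91% of all ranked genes), and the median log2 ratio was 0.29, against -0.12 in non-dividing cells. Fcer1g, the shared gamma chain, had 26.2 UMIs per 10000 in MCAO and 19.6 in control gated cells, against 18.2 and 17.0 in other marrow cells. Gab2, an adaptor below the receptor, had 2.96 and 1.46, and Plcg2, a phospholipase, 0.494 and 1.15. Syk, the kinase that binds the receptor's gamma chain, had 1.11 and 1.36.

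None of the 11 ranked cytokine and alarmin receptor genes reached 2-fold, with a median log2 ratio of 0.32. Of all ranked genes only 1.36% were at least 2-fold higher and 2.91% at least 2-fold lower. Csf2rb was the highest, at 18.4 UMIs per 10000 in MCAO and 11.7 in control gated cells. Il1rl1, the receptor for the alarmin interleukin 33, stood at 3.38 and 3.66, and Il3ra, the interleukin 3 receptor alpha chain, at 1.28 in both. Of 17 ranked receptor and adhesion genes none reached 2-fold either, with a median of 0.15. Cxcr4, the receptor that retains cells in the marrow, had 7.04 and 7.35, and Itgb7, an integrin chain used in homing, 4.24 and 3.41. Itga2, an integrin by which mouse basophils are often sorted, had 1.77 and 0.973, and C3ar1 had 2.55 and 1.59.

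All 9 ranked genes of the secreted cytokine and chemokine list had a higher level in MCAO than in control gated cells, with a median log2 ratio of 0.36, and 1 of them reached 2-fold. Of all ranked genes 49.6% were higher and 1.36% reached 2-fold. The median of the list was -0.0066 when single cells were averaged and -0.15 in non-dividing cells. Il4, a cytokine basophils are known for, was that gene, with 33 UMIs in 15 MCAO cells against 26 UMIs in 16 control cells, or 1.36 and 0.666 UMIs per 10000. Ccl3 was the highest of the list, at 17.7 and 13.8, and averaging single cells instead of summing turned its difference round, to a log2 ratio of -0.04. Ccl9 stood at 11.9 and 8.63, Csf1 at 5.35 and 5.00 and Il6 at 2.55 and 2.15. In non-dividing cells the list summed to 86.9 UMIs per 10000 in MCAO and 105 in control cells, and in dividing cells to 48.3 and 33.6. Il13 had 3 UMIs in each library.

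Of 8 ranked genes for histamine and lipid mediators none was at least 2-fold higher or lower (1.36% and 2.91% of all ranked genes), with a median log2 ratio of 0.24. Hdc, the enzyme that makes histamine, had 10.7 UMIs per 10000 in MCAO and 9.17 in control gated cells, against 3.81 and 4.74 in other marrow cells. Slc18a2, which loads histamine into granules, had 3.58 and 4.33, and Alox5, the first enzyme of leukotriene synthesis, 12.02 and 10.04. Alox15 was seen in 38 of 42 MCAO and 38 of 57 control gated cells, and in 53.7% and 28.6% of cells thinned to 1000 UMIs, with intervals of 37.4% to 69.3% and 17.3% to 42.2%.

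Of the lineage transcription factors, 1 of 18 ranked genes was at least 2-fold higher (1.36% of all ranked genes), none was at least 2-fold lower (2.91%), and the median log2 ratio was 0.07. Cebpa, a factor of granulocyte progenitors, had 8.52 UMIs per 10000 in MCAO and 6.48 in control gated cells, and Runx1 6.34 and 6.10. Lmo4 had 9.27 and 14.1, and Ikzf2 2.88 and 3.996. The gene past 2-fold was Tal1, a factor of blood stem cells and the erythroid line, at 1.61 and 0.794.

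The granule list had a small median ratio between the libraries. Of its 8 ranked members none was at least 2-fold higher in MCAO gated cells (1.36% of all ranked genes), 1 (Prg2) was at least 2-fold lower (2.91%), and the median log2 ratio was 0.11. Srgn, the proteoglycan that packs granule proteases, had 40.4 UMIs per 10000 in MCAO and 41.6 in control gated cells, and Ctsg, a serine protease, 12.4 and 13.2.

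Prg2, which encodes the major basic protein of eosinophils, was among the lowest genes in MCAO gated cells, and 2 control cells held nearly all of its UMIs. It had 21 UMIs in MCAO and 2431 in control gated cells, or 0.865 and 62.3 UMIs per 10000. Of the control UMIs 99% lay in 2 control cells with 424 and 1630 Prg2 UMIs per 10000, 1 on each side. Neither held Fcer1a, and their Gata2 levels were 5.49 and 1.16. Without them control cells stood at 0.67 UMIs per 10000 and the log2 ratio was 0.36. Ear1, a ribonuclease gene of eosinophils, had 0 UMIs in MCAO and 91 in control gated cells, 67 of them in 1 cell, which made it at least 18.9-fold lower against a floor of 3 UMIs over the MCAO cells. Ear1 has near-identical copies, so its count is uncertain.

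The other genes at the low end had between 5 and 11 UMIs in MCAO gated cells. H2-Q7, a class I histocompatibility gene with near-identical copies, had 5 UMIs in MCAO and 51 in control gated cells, or 0.206 and 1.31 UMIs per 10000, and was also lower in the other MCAO marrow cells, at 0.593 against 1.55. Of 10 ranked genes of its list, 7 had a lower level in MCAO gated cells (50.4% of all ranked genes), 1 was at least 2-fold lower (2.91%), 1 at least 2-fold higher (1.36%), and the median log2 ratio was -0.23. B2m, the shared light chain of class I molecules, stood at 17.5 in MCAO and 26.0 in control gated cells, and at 20.7 and 30.9 in other marrow cells. Hspd1, a mitochondrial chaperone, had 10 and 71 UMIs, and Ifi27, an interferon-induced gene, 9 and 55. Spns3, Tmem176b, Dusp2, Qars, Muc13, Pqbp1 and Gorasp2 completed the 12, at 3.34-fold to 5.08-fold lower levels in MCAO cells. Hspd1, Tmem176b, Muc13 and Gorasp2 overlap a gene on the opposite strand.

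Response genes gave small medians. Of 8 ranked interferon response genes, 1 was at least 2-fold lower in MCAO gated cells (2.91% of all ranked genes) and the median log2 ratio was -0.30, against 0.16 on the basophil side alone. That gene was Rtp4, at 0.947 UMIs per 10000 in MCAO and 2.36 in control gated cells, and at 2.17 and 3.75 in other marrow cells. The median was 0.22 over 12 immediate early and heat shock genes, 0.21 over 5 NF-kB genes, of which 1, Nfkbiz, was at least 2-fold lower (2.91% of all ranked genes), and -0.09 over 4 glucocorticoid response genes. In non-dividing cells the medians of these lists were -0.42, -0.57 and -1.13. The median was -0.17 over 12 S phase genes and 0.02 over 15 G2 and M phase genes. None of either was at least 2-fold higher or lower (1.36% and 2.91% of all ranked genes). The 8 genes of the basophil list that the gate did not use had a median of 0.51, against -0.030 in non-dividing cells, with 2 (Fcer1a and Il4) at least 2-fold higher and 0 lower, where 1.36% and 2.91% of all ranked genes were. Of 4 haemoglobin genes 4 were higher, where 49.6% of all ranked genes were, with a median of 0.77. Their sum was also higher in the other marrow cells of the MCAO library, at 78.6 against 46.5 in control.

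At the high end beside Fcer1a stood Neat1, a nuclear long noncoding RNA, with 80 UMIs in 30 MCAO cells and 44 UMIs in 26 control cells, or 3.29 and 1.13 UMIs per 10000. Its fold of 2.92 (1.998 to 4.32) was found on both sides, at 2.72 against 0.944 on the basophil side and 5.85 against 1.70 on the Cpa3 side. Cd200r1, the inhibitory relative of Cd200r3, had 38 and 24 UMIs, and Kcnj2, a potassium channel gene, 49 and 35. Mtfr1l, Lgalsl, Glmp, Acss2, Ppil4, Zfp385a, Hist1h2ac and Skap1 completed the 12, at 2.41-fold to 2.96-fold higher levels. Glmp, Acss2, Ppil4, Hist1h2ac and Skap1 overlap a gene on the opposite strand.

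**Figure D5:**
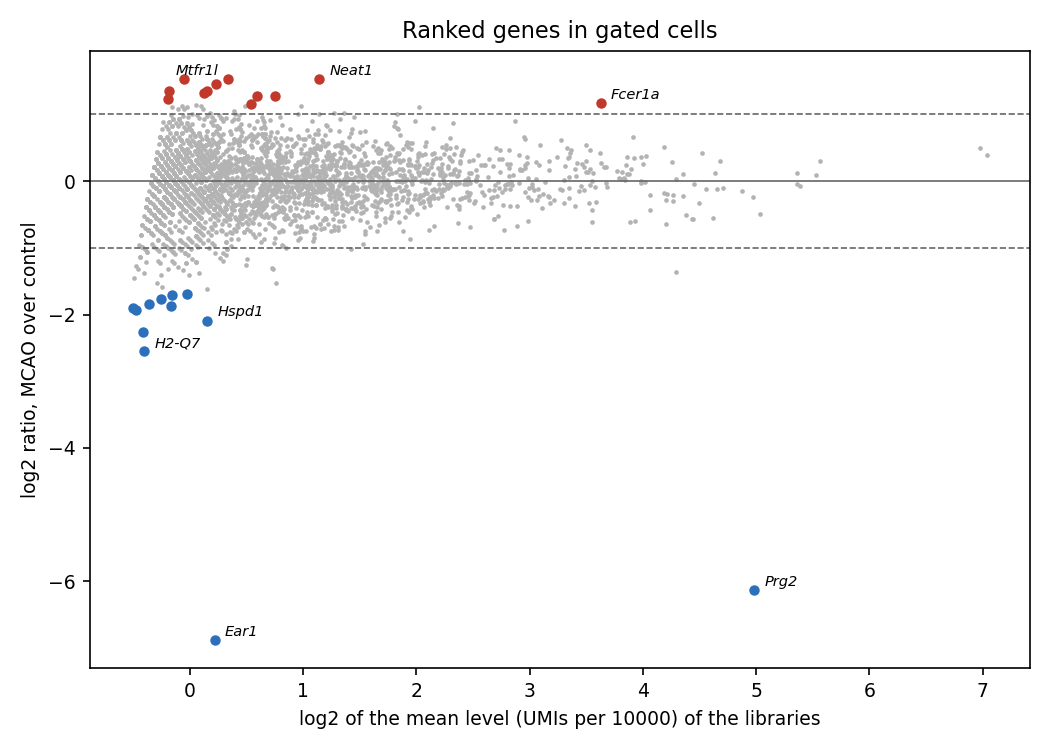
log2 ratio of MCAO over control (vertical) against the log2 mean level in UMIs per 10000 (horizontal) for 2650 ranked genes of the gated cells, with the 12 highest in red and the 12 lowest in blue and dashed lines at 2-fold. Fcer1a stands apart at a high level, Prg2 and Ear1 lie far below (Ear1 had 0 UMIs in MCAO cells, so its place depends on the 0.02 UMIs per 10000 added to each level), and the other named genes sit at low levels where counting error is widest.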

How the data were processed

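Values in the authors' single deposited table are on a natural log scale, ln(1 + UMIs per 10000 UMIs of the cell), read from the values themselves, since 100% of values gave whole UMI counts within 0.01 once scaled back. The columns carry pinyin words for control and stroke. Per the submitters' processing notes the tools were fastp, STAR, UMI-tools and Seurat 4.0.6 with build mm10, in no stated order. Per the labels' protocols no cell type sort was made. The table holds no mitochondrial mt- genes.

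Recovered UMIs were summed over the gated cells of each library and divided by their total UMIs. Ratios used a pseudocount of 0.02 UMIs per 10000. Genes with at least 50 UMIs over both libraries, seen in at least 10% of gated cells of 1 library, were ranked, without haemoglobin, antigen receptor, Gm or Rik and gate genes. The text names the 12 highest and 12 lowest for MCAO over control, the 12 highest over other cells, the 10 furthest to each side, and from each list the members of highest level or furthest from 0. Other genes, and the split by division, were chosen after their values were seen. The members and lists were chosen with earlier results of these data known. Intervals are exact Poisson or Clopper-Pearson at 95%, except those of differences between shares, which combine Wilson score limits (Newcombe). UMIs of 1 cell are not independent samples. Doublets were scored with Scrublet in scanpy 1.11.5, and other steps used Python 3.11.15, numpy 2.4.6, scipy 1.17.1 and pandas 2.3.3. The scripts were tested on simulated data. Of 25943 gene names, 25389 matched GENCODE M21. The number of ranked genes was 2650. The result of 1 gene is not reported here.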

Additional observations from a re-analysis of the deposited data

Results flagged for a closer look

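With the limit for dividing cells at 10, the level of Mpo moved in opposite directions between MCAO and control in the classes of division. The log2 ratio of MCAO over control was -1.163 in dividing cells (15.5 against 34.7 UMIs per 10000) and 1.436 in non-dividing cells (27.1 against 10.0), and 1 non-dividing MCAO cell held 177 of the 253 UMIs there. Below a limit of 5 Mpo stood at 2.17 in MCAO and 1.93 in control cells, and below a limit of 20 at 22.9 and 20.1. The size of the difference in non-dividing cells thus depended on the limit and on 1 cell. Myb had log2 ratios of -1.003 in dividing cells (2.005 against 4.02) and 1.144 in non-dividing cells (4.08 against 1.85), where 1 MCAO cell held 21 of 38 UMIs. With 1 library per condition, these differences between the classes were not tested.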

How the results depend on the processing

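No paired analysis was possible because each condition has 1 library. The alternatives changed the gate, its S100 limit, the depth or doublet filter, the minimum count, the weighting of cells and the side or class kept. The alternatives that keep at least 5 gate gene UMIs, leave out the 2 cells with eosinophil genes, or keep dividing or non-dividing cells were chosen after seeing the data. Every share stayed within its counting interval: the differences ran from -0.579 to -0.176 percentage points for the share of gated cells, -3.36 to 6.98 for the share of basophil side in the gate and -14.7 to 7.89 for the share of dividing cells in the gate. The 36 genes at least 2-fold higher became 64 with the mean over cells, 227 at a minimum of 20 UMIs, 9 at 100 UMIs and 18 in non-dividing cells. The 77 lower genes became 119, 396, 7 and 25 in the same settings and 26 on the Cpa3 side alone. The cause of these changes was not tested. Another minimum count also changes how many genes are ranked. Those numbers are not given here, so the counts are not shares of the 2650 genes and cannot be set beside 1.36% and 2.91%. On the Cpa3 side the log2 ratios of Zfp385a (-0.30), Hist1h2ac (-0.14), Mpo (2.09) and Prss34 (-1.68) reversed, and with the mean over cells those of Ccl3 (-0.035), Mcpt8 (-0.11) and the secreted list (-0.0066). Among MCAO cells of the Cpa3 side 1 cell had an Mpo level of 149.6, and the next highest had 9.05, so 1 cell weighs on that ratio. The rule for the Cpa3 side keeps Mcpt8 plus Prss34 under 30. A Prss34 UMI was held there by 3 of 14 MCAO and 12 of 20 control cells. A gate sum of 15 gave 0.13 and leaving out the eosinophil-gene cells 0.36 for Prg2 and for the eosinophil list. In non-dividing cells these stood at 1.58 and 0.71, Spns3 at 3.55, Zfp385a at -0.10, Fcer1a at -0.014, Cd200r3 at -0.34, Ccl3 at -0.57, Mpo at 1.43, Csf2rb at -0.15, Il18rap at -0.49, Ms4a2 at -0.19, and the lists for basophils at -0.030, IgE receptor at -0.12, cytokine receptors at -0.45 and secreted genes at -0.15. The interferon list was 0.16 on the basophil side. Of 560 values for single genes, 471 stayed within the counting interval of the reported value, 71 moved beyond it and 18 reversed. Depth limits the low genes, such as H2-Q7, whose 6.35-fold lower level has a counting interval of 2.55 to 20.4.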
